A study of Mus musculus with 2 samples.

Results

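In nuclear RNA of mouse macrophages, 330 genes with a transcript of the GENCODE type TEC reached 5 TPM or more in both libraries. Genes with such a transcript are called TEC genes here, and the level is that of the whole gene. TEC is GENCODE's provisional type for loci that have transcript evidence, often from expressed sequence tags with a poly(A) tail, and still await experimental proof that they are genes. Members were selected on measured values: every gene with a TEC transcript in the transcript tables whose TPM in the gene tables reached 5 in replicate 1 and in replicate 2. They were 330 of 3258 TEC genes (10.1%), and of 55536 annotated genes in all. TPM, transcripts per 1000000, is a level per length. The levels themselves are therefore a description of what the rule selected. The remaining 2928 TEC genes were the set beside which position and sequence, which the rule did not use, were read.

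Both libraries came from bone marrow derived macrophages of strain C57BL/6J, treated with 100 ng/ml Lipid A, the part of bacterial lipopolysaccharide that Toll-like receptor 4 recognises, for 10 min. The labels name the RNA fraction both nucleoplasmic and nucleus, and give age and sex as not collected. Replicate 1 was made from 1 µg and replicate 2 from 500 ng of RNA, and both carry the same donor identifier, so the spread between them may be partly technical. No untreated group, other time or other fraction was analysed here, so nothing below is a response to Lipid A. The libraries held 19153465 and 11622346 expected counts, and all 12 macrophage markers tested reached 1 TPM in both, with summed levels of 9187 and 6089 TPM. Lists for 8 other cell types summed to at most 5.99 TPM in a library.

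A nuclear RNA fraction holds newly made RNA, much of which still contains introns, beside RNA that is retained in the nucleus. Introns of transcribed genes are copied into precursor RNA before splicing removes them. An annotated single-exon model within an intron of a gene on the same strand covers the same bases as that precursor. Reads from a separate transcript and reads from the precursor cannot be told apart in these tables at such a place.

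The term unspliced held for the TEC models: all 330 members had TEC models of 1 exon, as did 3198 of the 3258 TEC genes. In 317 members every transcript was of type TEC. The other 13 also had transcripts of other types. TEC transcripts held at most 34.2% of the gene's TPM in 10 of these and at least 96.6% in 3. Ensa, an inhibitor of a protein phosphatase in mitosis, had 75.75 and 59.51 TPM as a gene and 14.93 and 10.15 TPM in its TEC model. Snhg14, a long noncoding host of small nucleolar RNAs that was chosen after its values were seen, had 0% of its level in a TEC model. The second quantification of the same reads, described below, put 12.6% of Snhg14 there. The TEC transcripts alone reached 5 TPM in both libraries in 6 of the 13 mixed genes. The 330 genes carry 329 symbols, since Gm36638 names a pair of neighbouring loci.

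The 3 prime ends of members on which the sequence results turn are shown first, as the last 50 bases of each model in GENCODE M21 transcripts (mm10), 5 prime to 3 prime. The highest members with 1 TEC transcript and no base in an exon of the containing gene were taken from each set. The first 4 contain AATAAA, the most common hexamer that directs cleavage and polyadenylation of messenger RNA, shown in capitals.
Gm45222: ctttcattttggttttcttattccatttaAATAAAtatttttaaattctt
Gm38091: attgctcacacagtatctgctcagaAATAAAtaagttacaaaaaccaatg
6030400A10Rik: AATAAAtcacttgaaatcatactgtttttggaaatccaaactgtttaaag
Gm43197: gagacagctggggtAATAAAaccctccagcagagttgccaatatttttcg
They lie at chr7:90150205-90150254 on the plus strand, chr9:89259525-89259574 on the minus strand, chr5:43266319-43266368 on the plus strand and chr6:3336772-3336821 on the minus strand.

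The next 3 end in a stretch with at least 12 A among the last 20 bases, which are shown in capitals. Such stretches were chosen because oligo(dT) can anneal to them inside an RNA. The end of 5330406M23Rik also holds ATTAAA, a common variant of the hexamer, left here in small letters.
Gm37474: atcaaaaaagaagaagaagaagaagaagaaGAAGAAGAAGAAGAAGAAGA
Gm45828: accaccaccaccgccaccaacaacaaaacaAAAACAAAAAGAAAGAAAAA
5330406M23Rik: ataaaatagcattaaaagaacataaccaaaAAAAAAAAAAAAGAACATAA
They lie at chr9:32525145-32525194 on the minus strand, chr6:91711192-91711241 on the plus strand and chr6:31108827-31108876 on the minus strand.

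The last 3 hold neither feature and come from the most abundant members, so no letters are in capitals.
Gm37589: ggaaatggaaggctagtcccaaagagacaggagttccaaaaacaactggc
Gm37082: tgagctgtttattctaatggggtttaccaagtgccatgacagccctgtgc
Gm45223: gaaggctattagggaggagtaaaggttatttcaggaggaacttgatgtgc
They lie at chr3:60539695-60539744 on the plus strand, chr9:32535251-32535300 on the minus strand and chr7:90137580-90137629 on the plus strand.

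AATAAA or its common variant ATTAAA occurred in the last 50 bases of 78 of 334 TEC transcripts of members (23.4%). The share was 29.6% among 2962 transcripts of the other TEC genes, 50.2% among protein-coding transcripts, 22.4% among retained intron transcripts and 33.7% among all transcripts. In the first 50 bases of the members' transcripts the hexamers occurred in 3.59%, and their reverse complements occurred in the last 50 bases in 9.28%. At least 12 A among the last 20 bases were found in 39 of the 334 transcripts (11.7%), beside 8.64% of the other TEC transcripts and 5.56% of all transcripts. A match is a run of letters and not a mapped cleavage site, and the bases beyond the ends were not analysed here. Members with a hexamer had a median of 8.93 TPM and those without one 8.61 TPM. The sequences of the members had a median GC content of 41.7%, close to 42.4% for the other TEC transcripts and below 50.4% for protein-coding transcripts.

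The lower edge of the members' levels is set by the rule. The median member stood at 8.75 ± 0.0778 TPM (SD, n = 2 libraries), and mean levels ran from 5.03 to 154.44 TPM. Of the 330 members, 131 reached a mean of 10 TPM, 40 reached 20 TPM and 6 reached 50 TPM. Together they held 0.414 ± 0.017% of TPM and 1.09 ± 0.0106% of expected counts (SD, n = 2). At the other end, 1445 TEC genes had 0 counts in both libraries. Members made up 4.09% of the 8073 genes at 5 TPM in both libraries.

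The TPM scale of these tables is compressed by short RNA. Small RNA types and mitochondrial genes held 65.1% and 68.7% of TPM in replicates 1 and 2, but 9.77% and 10.8% of expected counts. Rescaled without them, levels multiply by 2.88 and 3.20, and 770 TEC genes would reach 5 TPM in both libraries. A minimum of 1 TPM as deposited gives 921.

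The highest member was Dleu2, the long noncoding host transcript of a microRNA cluster, with levels of 163.34 and 145.54 TPM in the first and the second replicate. The TEC transcripts of Dleu2 held 53.1 and 46.75 TPM of this. Ensa, Mir99ahg (a microRNA host) and Sfswap (a splicing regulator) also ranked among the first 5 and also mix TEC with other transcripts. Sfswap stood at 54.14 and 50.93 TPM, of which its TEC model held 14.1% over both libraries. That model had 12.68 TPM in replicate 1 and 2.12 TPM in replicate 2, so its libraries did not agree. Among genes of TEC transcripts alone, the highest was Gm42793, 1252 nt long at chr5:104435121-104436372 within Spp1, the gene of the secreted phosphoprotein osteopontin. Gm42793 had 57.94 and 57.96 TPM, the closest pair of TPM values among the 12 highest members. On the scaled counts used below its log2 difference was −0.13, and that of Gm45222 was smaller at −0.08. Of its bases, 24.7% lie in exons of Spp1, which stood at 613.18 and 373.42 TPM. Over those bases, reads of Gm42793 and of Spp1 messenger RNA cannot be told apart, and the source of the reads was not tested.

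Gm37589 lies in an intron of Mbnl1, a regulator of alternative splicing, and had 59.35 and 45.25 TPM over 3994 nt. Gm37082, in an intron of the ETS transcription factor gene Fli1, had 36.55 and 42.77 TPM. A pair of members from introns of Picalm, a clathrin assembly gene, followed: Gm45223 with 48.78 and 29.81 TPM and Gm45222 with 39.75 and 38.82 TPM. Replicate 1 was higher for Gm37589 and Gm45223, and replicate 2 for Gm37082. Gm38091 had 38.82 and 39.65 TPM and lies opposite to Mthfs, a folate enzyme gene. Gm37472, within Dleu2, had 40.05 and 31.94 TPM. Gm43071, within the lysosomal membrane gene Dram2, had 28.41 and 41.94 TPM.

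**Figure D1:**
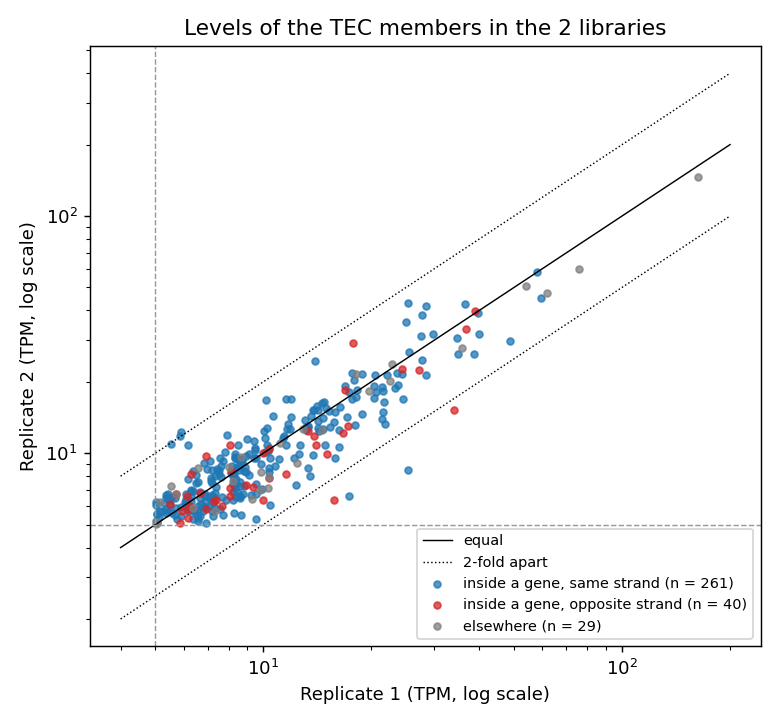
TPM of each of the 330 members in replicate 1 (x axis) and replicate 2 (y axis), both on log scales, coloured by position; dashed lines mark 5 TPM, the solid line equal levels and the dotted lines a 2-fold difference. Most points lie between the dotted lines, and Dleu2 at 163.34 and 145.54 TPM stands apart at the top.

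At the threshold the choice of members turned on small differences. Just inside it were Gm43990 with 5.01 and 5.05 TPM, Gm42611 with 5.01 and 5.18 TPM, and Gm48890 with 5.02 and 6.25 TPM. Just outside were Gm36958 with 6.31 and 4.99 TPM, and Gm20236 and Gm37094, each with 4.98 and 5.19 TPM. The last pair had equal lengths and equal values in both quantifications, 483 and 325 expected counts each, so their levels cannot be told apart and are uncertain. In all, 106 TEC genes reached 5 TPM in 1 library only.

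The median member model was 2086.5 nt long, with a middle range (25th to 75th percentile) of 1333.75 to 3020 nt, and 265 of the 330 lay between 1000 and 5000 nt. The other TEC genes had a median of 1933.5 nt. The longest member, 9330162G02Rik at 30942 nt, overlaps the edge of the ubiquitin ligase gene Ube3a and had 8.69 and 9.66 TPM from 6003 and 4294 expected counts. Gm37033, 7350 nt long in the inositol trisphosphate kinase gene Itpkb, had 20.62 and 18.04 TPM. Gm38082, 6882 nt long in the homeobox gene Cux1, had 6.08 and 6.71 TPM. Across members, length was unrelated to level as ranks (Spearman −0.04, n = 330) and went with expected counts (0.75). These are descriptions across genes, which are not independent of one another.

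Depth behind a level differed by length. The median member had 384 expected counts in replicate 1 and 233.5 in replicate 2, and 284 members had at least 100 in both. The 2 members with fewer than 10 counts in a library were also the shortest. Gm47089, 166 nt long in the Notch coactivator gene Maml2, had 25.28 and 8.50 TPM from 4 and 1 counts, and its deposited interval in replicate 2 ran from 0.411 to 37.3 TPM. Gm38109, 181 nt long in Ppp1r21, had 38.73 and 26.17 TPM from 10 and 5 counts. These levels rest on a few reads divided by a short effective length. Expected counts were whole (within 0.005) in both libraries for 303 members (91.8%), beside 70.6% of genes at 5 TPM; a whole count does not show that no reads were shared.

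The libraries were close for the members. Of the 317 members with a mean of at least 50 scaled counts, 2 were more than 2-fold higher in replicate 1 and 2 in replicate 2, or 0.631% each. Over 11526 genes passing the same minimum the shares were 1.47% higher in replicate 1 and 0.46% higher in replicate 2. Since the rule asked for 5 TPM in both libraries, it left out genes that are high in 1 library alone, and nothing is read from the lower share. Differences of at most 1.5-fold were found in 94.0% of these members and 91.5% of all such genes. The rule favours members here in the same way, so nothing is read from this either. The median log2 difference (replicate 1 minus replicate 2) was −0.08 for members and 0.00 for all genes. This was not particular to members, since 373 TEC genes under 5 TPM in both libraries that passed the same minimum had −0.06. Among genes at 5 TPM, sense intronic genes had −0.09 and protein-coding genes −0.02. The median coefficient of variation of TPM was 9.60% for members and 10.5% for genes at 5 TPM.

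Across the 330 members, log2(TPM + 1) in the libraries correlated with Pearson's r of 0.92 and Spearman's rho of 0.85, and across genes at 5 TPM with an r of 0.96. The deposited intervals of the libraries overlapped for 227 of 330 members (68.8%) and for 71.1% of genes at 5 TPM. Each interval is made from 1 library and so holds no spread between cultures.

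Both members more than 2-fold higher in replicate 1 lie inside a gene on the opposite strand. Gm44545, opposite to the UDP receptor gene P2ry6, had 15.78 and 6.36 TPM from 184 and 49 counts. AC167363.2, opposite to Cdkn1a, the gene of the cell cycle inhibitor p21, had 34.0 and 15.2 TPM. The pair higher in replicate 2 lies within genes on the same strand. 2610306O10Rik, within the co-chaperone gene Bag3, had 5.90 and 12.31 TPM, and Gm48375, within Wdr37, had 5.52 and 10.95 TPM. The next in order were Gm45342 (in Nsd3, a histone methyltransferase gene), with 9.55 and 5.29 TPM, and Gm47445 (in Dse, a dermatan sulfate enzyme gene), with 13.89 and 24.57 TPM, both less than 2-fold apart on the scaled counts.

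Most members lay within another gene. Of the 330 members, 261 (79.1%) lay wholly inside another gene on the same strand, as did 1431 of 2928 other TEC genes (48.9%). A further 40 (12.1%) lay wholly inside a gene on the opposite strand, beside 13.2% of the others. There were 11 members (3.33%) farther than 5 kb from every other gene, beside 18.3% of the others. The remaining members overlapped a gene's edge (7), lay within 5 kb downstream on the same strand (7) or lay otherwise within 5 kb (4). For the 13 mixed genes, position is that of the TEC transcripts relative to other genes.

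**Figure D2:**
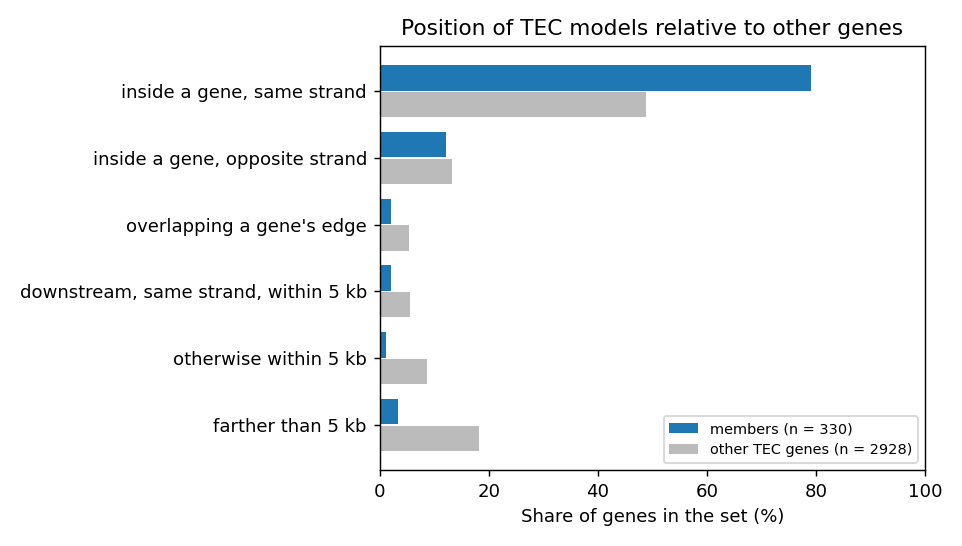
Share of the 330 members (blue) and of the 2928 other TEC genes (grey) in each position class, in percent of the set. Inside a gene on the same strand lay 79.1% of members and 48.9% of the others; farther than 5 kb lay 3.33% and 18.3%.

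Of the 261 members within a gene on the same strand, 248 touched no exon of it and so were wholly intronic. The containing gene, here called the host, was protein-coding for 239. There were 197 hosts, of which 39 held more than 1 member and 13 held at least 3. Dleu2 and Mir99ahg were both members and hosts of other members.

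Hosts of members were expressed, and those of other TEC genes mostly were not. The median host level was 35.5 TPM for members and 0.365 TPM for other TEC genes inside a gene on the same strand. Among TEC genes with a host under 1 TPM, 2 of 787 (0.254%) were members. The share was 4.02% for hosts of 1 to 5 TPM, 6.45% for 5 to 10, 26.1% for 10 to 20, 43.6% for 20 to 50 and 62.0% for 50 to 100 TPM. With hosts of at least 100 TPM, 24 of 27 TEC genes (88.9%) were members. The share was higher at every step of host level. Host and TEC gene share a library and, in introns, a precursor RNA, so this order is a description and its cause was not tested.

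**Figure D3:**
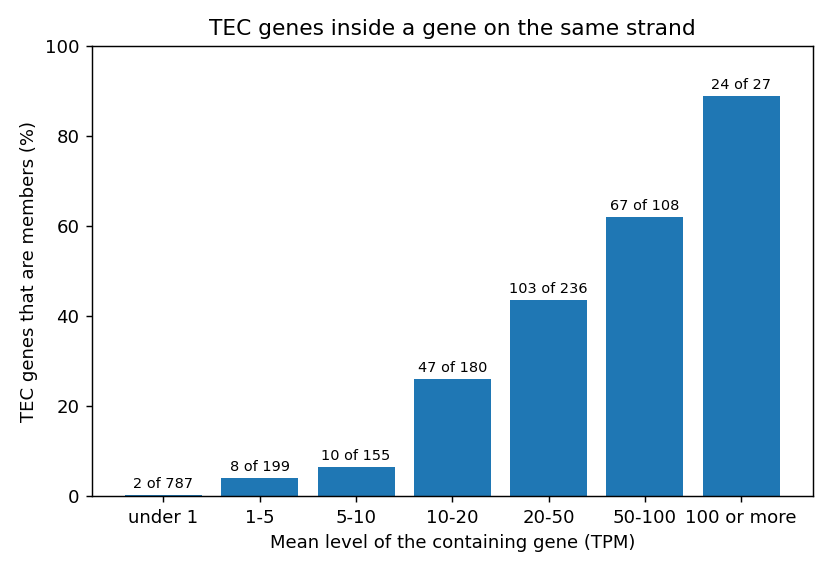
Share of TEC genes inside a gene on the same strand that are members (y axis, percent), by mean level of the containing gene in TPM (x axis); the label of each bar gives the number of members of all TEC genes in the bin. The share runs from 0.254% under 1 TPM to 88.9% at 100 TPM or more.

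The same order was seen on the opposite strand. Of TEC genes inside an opposite-strand gene, 2 of 267 (0.749%) were members where that gene stood under 5 TPM, 12% at 5 to 20 TPM, 25% at 20 to 50 TPM and 48.5% (16 of 33) at 50 TPM or more. On the same strand the shares in these ranges were 1.01%, 17.0%, 43.6% and 67.4%. No source used here says whether the counting used strand, so reads of an opposite-strand neighbour cannot be told apart from those of the 40 members in this class. The highest of them after Gm38091 were Gm47603, opposite to 2010111I01Rik, with 36.84 and 33.30 TPM, and Gm44981, opposite to the taurine transporter gene Slc6a6, with 27.16 and 22.35 TPM.

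A member usually stood below its host. The median member level was 27.8% of the host's TPM, with a middle range of 16.5% to 46.7%. By mean TPM, 17 of 261 members were above their host, of which 15 were above it in both libraries with at least 10 counts in each. For 10 members the host stood under 5 TPM, so the rule itself placed them above it, and nothing is read from these. Gm37082 was above a host that passed 5 TPM, at 36.55 and 42.77 TPM where Fli1 had 25.99 and 31.38. In Maml2, a host under 5 TPM with 3.93 and 3.32 TPM, Gm47087 stood at 10.23 and 12.71 TPM (chosen after its values were seen). TPM divides by the length of the spliced host and of the whole member, so these are levels per length. Across the 261 members, log2 levels of member and host correlated with a Pearson r of 0.46 and a Spearman rho of 0.37. Log2 differences between the libraries correlated more weakly (r 0.18, n = 249 pairs over 187 hosts). Host genes shared between members, and a common library, link these points.

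Of the 8073 genes at 5 TPM in both libraries, 189 (2.34%) hosted a member, and the hosts in the gene lists are read beside that share. Of 26 Toll-like receptor and NF-kB genes, 1 hosted a member: Gm43430, with 7.74 and 5.48 TPM, lies in Nfkb1, which encodes the p50 subunit and its precursor. Of 26 interferon-stimulated genes, 1 did: Gm49730, with 15.88 and 9.53 TPM, in Parp14. Of 26 RNA processing genes, 1 did: Gm43362, with 7.14 and 7.88 TPM, in the splicing factor gene Srsf11. In these 3 lists 1 further TEC gene lay inside a listed gene on the same strand, a Toll-like receptor and NF-kB gene. None of 30 macrophage identity genes and none of 39 immediate early and early inflammatory genes hosted a member. Inside the genes of these 2 lists no TEC gene was annotated on the same strand, so the count of 0 is set by the annotation.

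Measured from the host start, their median position was 32.9% of the host's length, and from start to end each 25% of the host held 104, 70, 58 and 29 members. For the 455 other TEC genes with a host of at least 5 TPM the median was 41.6%, with 125, 146, 105 and 79 in the same order. The first 25% thus held 39.8% of members and 27.5% of the others. The sets were not matched for host length or for host level above 5 TPM, and the cause was not tested. Across the members inside a host, relative position and level as a percent of the host had a rank correlation of −0.16.

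Where several models share a host, levels can be compared within 1 gene. The hosts and models of this comparison, here and in the paragraphs on Fli1, Cers6 and the 31 hosts, were chosen after their values were seen. In Picalm, Gm45223 at 2.28 kb from the start had 48.78 and 29.81 TPM and Gm45222 at 15.7 kb had 39.75 and 38.82 TPM. Farther along, Gm45221 at 55.7 kb had 29.64 and 31.81 TPM and Gm45220 at 71.1 kb had 15.80 and 14.97 TPM. The last model was below all the others in both libraries, while the first pair did not differ beyond its spread. Picalm itself had 207.84 and 200.31 TPM.

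In Fli1 the 4 members ran from Gm37082 at 5.68 kb (36.55 and 42.77 TPM) through Gm37474 at 15.9 kb (25.50 and 26.74 TPM) and Gm38346 at 32.5 kb (28.41 and 21.35 TPM) to Gm38292 at 62.5 kb (10.30 and 10.21 TPM). The first was highest and the last lowest in both libraries, and the middle pair overlapped. In Med13l, a Mediator subunit gene, the first of 5 members, Gm43788 at 42.0 kb, had 14.15 and 15.78 TPM. The others had means of 13.2, 8.61, 7.75 and 5.57 TPM in order, the last for Gm43051 at 147 kb. In the kinase gene Camk2d the first 4 models ran from a mean of 10.1 TPM for Gm43011 at 3.73 kb down to 5.29 TPM for Gm43006 at 61.4 kb. Of the 3 models beyond them, Gm42515 at 141 kb had 4.66 and 6.34 TPM and none was a member.

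Some hosts did not show this order. In the ceramide synthase gene Cers6, Gm37666 at 152 kb was the highest of 6 models with 11.42 and 11.86 TPM. In Mlxip, a glucose-responsive transcription factor gene, 3 members had means of 6.70, 7.06 and 7.69 TPM from start to end, within the spread of the libraries. Mir99ahg showed the order unevenly, with 8 members at means between 5.80 and 10.4 TPM. Over its 11 wholly intronic models, position and level had a rank correlation of −0.43.

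**Figure D4:**
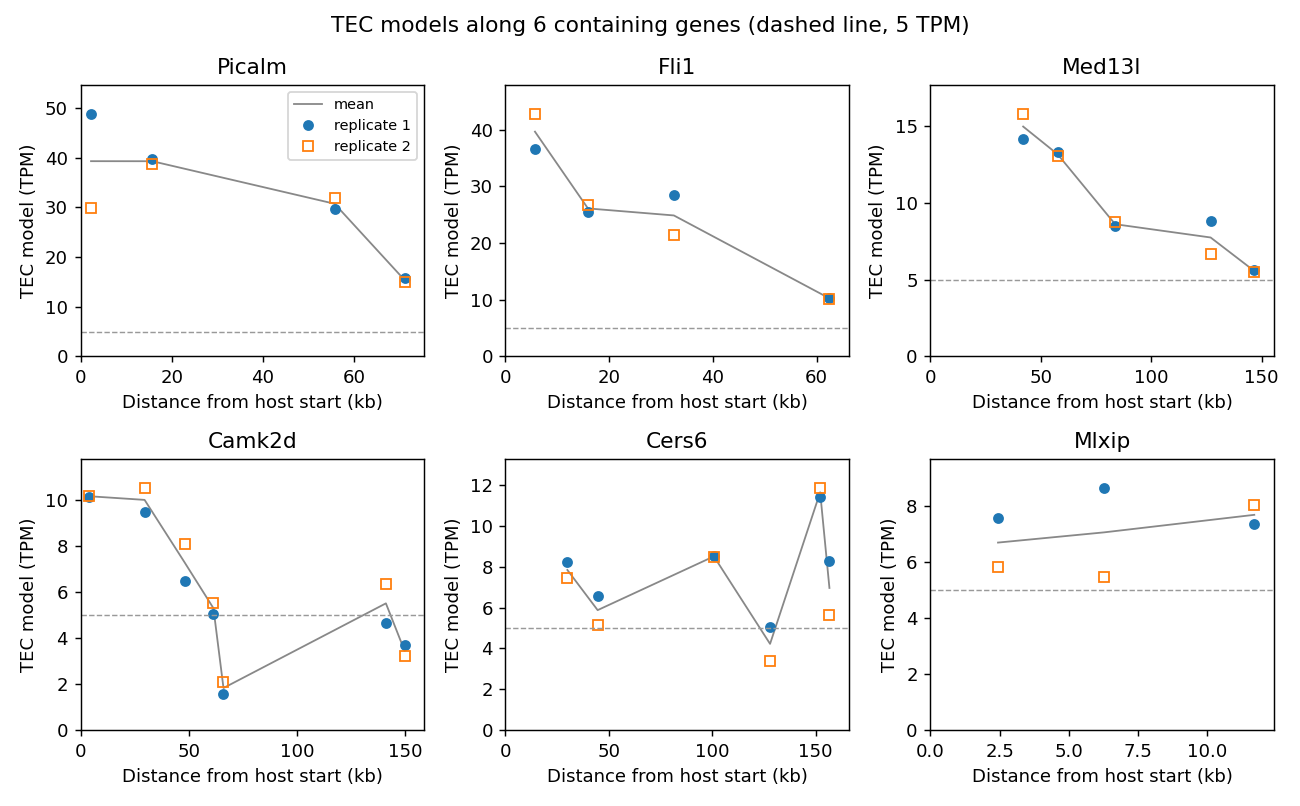
TPM of each wholly intronic TEC model (y axis) by its distance from the start of the containing gene in kb (x axis) in 6 genes; circles are replicate 1, squares replicate 2, the line their mean and the dashed line 5 TPM. Mean levels are lower farther from the start in Picalm, Fli1 and Med13l, unevenly so in Camk2d, and not so in Cers6 and Mlxip.

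Over all 31 hosts of at least 5 TPM that held 3 or more wholly intronic TEC models, at least 1 of them at a mean of 5 TPM, 131 models were compared within their host. The rank correlation of position with level was negative in 21 hosts, positive in 9 and 0 in 1, with a median of −0.50. It was −1 in 6 hosts (Aak1, Dock10, Fli1, Med13l, Picalm and Stag1) and 1 in Mlxip alone. With 3 to 11 models a host, single values are coarse. By the second quantification 19 of the 31 were negative and the median was −0.20.

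The second quantification gave the members more counts and a lower TPM. Its totals were 26079323 and 20703247 counts. It assigned more counts to 329 of the 330 members in each library, by a median of 1.35-fold in replicate 1 and 1.74-fold in replicate 2, beside 1.32 and 1.72 for genes at 5 TPM. TPM was nevertheless lower in it for 317 members in replicate 1 and 278 in replicate 2. The median log2 ratio of mean TPM (second to gene tables, pseudocount 1) was −0.65 for members and −0.48 for genes at 5 TPM. Retained intron transcripts, another intron-bearing class, had a median of −0.69.

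More than 2-fold apart were 4 members higher in the second quantification and 3 lower, 1.21% and 0.909%. The background over 8069 genes at 5 TPM was 1.19% higher and 3.48% lower. The count of members apart in either direction depends on the library: it was 102 in replicate 1 alone and 10 in replicate 2 alone, beside 7 for the means. The share over all genes was not computed for 1 library alone, so these counts are not read as a trait of the members. Gm37123, in the kinase gene Pik3ca, had 8.81 and 7.29 TPM in the gene tables and 13.9 and 32.6 TPM in the second. Gm38109, Gm37399 (in Elf2) and Gm37689 (in Sdcbp) are 181, 416 and 275 nt long, and Gm37689 had 27.61 and 38.34 against 71.2 and 67.7 TPM. Of those lower, Gm19918, opposite to Fam20b, had 8.92 and 7.31 against 0.968 and 0.853 TPM, the farthest of all. Gm42793 and Gm45222 passed 2-fold narrowly.

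The 14 members under 500 nt had a median log2 ratio of 0.19, and the 316 longer ones −0.65. Members ranked alike in both quantifications (Spearman 0.85, Pearson r 0.87 on log2 TPM). The threshold did not carry over: 153 of the 330 members reached 5 TPM in both libraries by the second quantification, 329 reached 1 TPM, and 111 TEC genes that are not members reached 5 TPM there. Rescaling both without small RNA types and mitochondrial genes put 148 of the 330 members more than 2-fold lower and 1 higher. Of genes at 5 TPM, 26.2% were lower and 0.818% higher, so the lower share was larger among members. The median log2 ratio was then −0.97 for members, near the 2-fold line, and −0.78 for genes at 5 TPM. The cause was not tested.

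**Figure D5:**
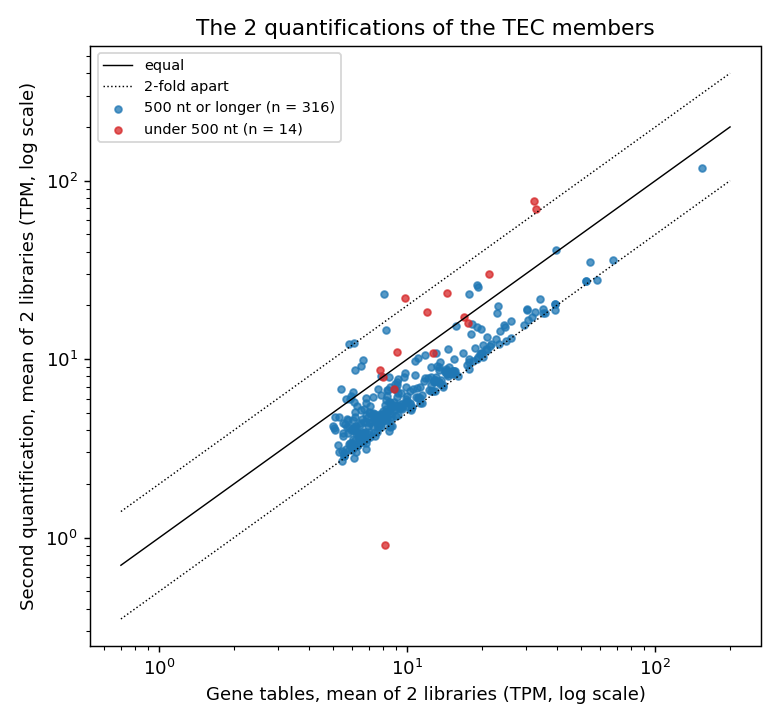
Mean TPM of each member in the gene tables (x axis) and in the second quantification (y axis), both log scales; red points are the 14 models under 500 nt, the solid line marks equal levels and dotted lines 2-fold. Most blue points lie below the solid line; Gm19918, a red point, lies far below, at 0.968 and 0.853 TPM in the libraries.

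Beside other gene types, genes of type TEC reached 5 TPM in both libraries at a rate like that of sense intronic RNA. The share was 9.88% of genes of type TEC (318 of 3219), 9.48% of sense intronic, 9.37% of processed transcript, 3.72% of antisense, 1.88% of lincRNA and 32.3% of protein-coding genes. Of 21848 retained intron transcripts, 10.8% reached it. Median levels among those at 5 TPM were 8.68 TPM for TEC, 10.1 for sense intronic, 12.2 for lincRNA and 16.5 for protein-coding genes, and 9.47 TPM for retained intron transcripts.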

How the data were processed

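Ribosomal RNA-depleted total RNA was sequenced from 2 libraries of 1 group. Per the text files deposited beside the tables, the authors made the gene and transcript tables from alignments to mm10 transcripts of GENCODE M21, and a second transcript table from the reads with the same annotation. The sources used here name neither the programs nor the strand handling. The expected count of the deposited gene tables is an estimate and was rounded before scaling. TPM, as deposited, is scaled to 1000000 over all entries of a table, per the file headers. The deposited interval bounds, a signal in TPM that is never negative, surround the posterior mean. Second-table transcripts were summed per gene.

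Members and lists were chosen with earlier results of these data known. With 2 libraries of 1 group no test was made; values are means ± SD. Entries naming no annotated gene held 1.18% and 0.405% of counts and were left out, leaving 19153465 and 11622346 expected counts in replicates 1 and 2. Counts were scaled by TMM (edgeR 4.0.16, R 4.3.3); a gene was called more than 2-fold apart at a mean of at least 50 scaled counts with a pseudocount of 1. DESeq2 1.42.0 size factors and the other alternatives are described with their effect below. Position was read from the GENCODE M21 annotation: the containing gene was taken on the same strand, protein-coding first, then by highest mean TPM. Named genes followed a rule on level, counts, distance between libraries, quantifications, length, threshold, position class and listed hosts; the others, chosen after their values were seen, are marked where they appear.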

Additional observations from a re-analysis of the deposited data

How the results depend on the processing

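The number of members was 921 at a minimum of 1 TPM, 117 at 10 TPM and 770 with TPM rescaled without small RNA types and mitochondrial genes; with 1 library alone it ran from 367 to 399. The median level was 8.29 TPM by posterior mean, and 8.69 to 8.80 TPM in 1 library alone. By the second quantification it was 5.93 ± 1.85 TPM (SD, n = 2), with 4.62 TPM in replicate 1 and 7.24 TPM in replicate 2. All TEC genes held 0.684% of TPM and 1.62% of counts. In the second quantification they held 1.14 ± 0.453% of TPM and 2.94 ± 0.234% of counts (SD, n = 2). That share of TPM was 0.816% in replicate 1 and 1.46% in replicate 2. Members more than 2-fold apart between libraries numbered 2 on log2(TPM + 1) and 1 by second counts, beside 4. The share over all genes was not computed in those settings, so these counts are not read as a trait of the members. The median difference between libraries turned to 0.034 on log2(TPM + 1), where all genes stood at 0.09, so members stayed below all genes by 0.06. Pearson's r was 0.94 by the second quantification and 0.97 on log2(count + 1). Members more than 2-fold apart between the quantifications numbered 17 with a pseudocount of 0.1, 55 by counts and 149 with rescaled TPM, beside 7. By counts, 54 of the 330 members were higher and 1 lower in the second quantification, beside 9.79% and 0.174% of genes at 5 TPM. In replicate 2 alone 10 members were apart and in replicate 1 alone 102, so that count depends on the library. The share over all genes was not computed for 1 library alone or for the pseudocount of 0.1. The median log2 ratio of the quantifications over members was 0.59 by counts, since the second quantification gave more counts. That ratio was −0.97 with rescaled TPM and −0.91 to −0.40 in 1 library alone, beside −0.65. The hexamers were in the last 30 bases of 17.7% of the models. The median order along hosts was −0.20 by the second quantification. Where no reason is given, the cause was not tested. The other 35 recomputed values met a rule of closeness. For counts it was within 1.5 times, and for the others within the spread between the libraries. For the rank correlation of member and host level, 0.41 and 0.32 in the 2 libraries, that spread was an SD of 0.0628. Where no spread exists, the rule was a tolerance of 0.05 (log2 difference), 0.005 (r) or the 95% binomial interval. The reported median level and shares of TPM and counts are means of the libraries. A value from 1 library alone then always lies within their spread, so it is no check. The spread was also wide for the ratio of the quantifications. No paired analysis was possible because there is 1 group. The A-rich stretch beyond the 3 prime end was not run. Alternatives with TEC transcripts alone, intronic members alone and the order along hosts were chosen after seeing the data. Members under 10 counts in a library cannot be ranked.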
